A study of Mus musculus with 24 samples.

Results

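Endothelial identity genes were followed as a fixed list of 43 symbols, chosen by name as known markers of blood vessel lining cells, among the 53392 genes quantified in the series. All 43 matched 1 gene record each. They were measured by sequencing of messenger RNA from kidneys of FVB mice, an inbred albino strain. Endothelial cells had been pulled from digested kidneys with microbeads against CD31, the protein encoded by the member Pecam1, and proximal tubules had been collected by microdissection. The endothelial isolates came from males with ischemic acute kidney injury (IRI, 3 libraries), sham males without injury (3), IRI females (3) and sham females (2). The tubules came from the same 4 kinds of mice with 3 libraries each, where the third sham male sample is the sum of the 2 libraries made from it. No group carries a transgene or drug in the labels, and the age of the mice, the length of ischemia and the time of collection are not given in the sources used here. The protocol speaks of 3 mice of each sex per group, but no label ties a library to a mouse, so p-values measure the spread between these libraries. The question was how far differences in these genes follow the yield of endothelial RNA in a library and how far they follow injury or sex.

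Blood vessels of the kidney include the fenestrated capillaries of the glomerulus, the peritubular capillaries around the tubules, arterioles and veins. Their lining cells share a program held by ETS and SoxF transcription factors, which keeps up junction proteins such as VE-cadherin and receptors for VEGF and angiopoietin. VEGF made by podocytes and tubules acts on the receptor encoded by Kdr, and angiopoietins act on the one encoded by Tek. Loss of peritubular capillaries is a known consequence of ischemic injury in rodents. The list holds 14 junction and surface genes, 10 receptors and guidance genes, 8 transcription factors, 6 genes of peptide and lipid mediator signalling, and 5 genes of particular vessel beds or of secreted proteins.

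Levels between libraries are given in CPM, read counts set to a common library size, with sizes scaled by edgeR's TMM factors over all 23 libraries. The libraries held 32592517 to 54906972 estimated reads. To set yield apart from other differences, the counts of each member were also expressed per 1000 reads of 20 endothelial genes that are not members (Adgrf5, Nos3, Rasip1 and others), a scale on which a library with more endothelial RNA gains nothing. In bulk samples such as these, fewer cells of a type and less RNA per cell cannot be told apart.

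Several libraries stood apart and bear on the results. The isolates were not pure: the summed level of 12 proximal tubule markers was 10644 to 31860 CPM in endothelial isolates and 13453 to 39625 CPM in tubules, and that of 7 thick ascending limb and distal markers was higher in the isolates, at 7786 to 15989 CPM against 1623 to 7639 CPM. The isolates also held more of 7 podocyte markers, which summed to 800 to 1819 CPM in isolates and 34.2 to 451 CPM in tubules. The 2 isolates poorest in the 20 other endothelial genes, sham male replicates 1 and 2 (274 and 325 CPM), had the highest tubule marker sums of the isolates (31156 and 31860 CPM). In IRI male isolate replicate 2, 7 neutrophil markers summed to 103 CPM, against 2.58 to 12.4 CPM in the other isolates. IRI male tubule replicates 1 and 2 had neutrophil sums of 32.7 and 19.6 CPM, against 1.26 to 4.82 CPM in the other tubule libraries. In IRI male tubule replicate 3 the proximal tubule markers summed to 13453 CPM, the lowest of all tubules, against 31003 and 28781 CPM in replicates 1 and 2. Of the 12 proximal tubule markers, Kap alone spanned 30.1 to 16626 CPM in isolates and reached 19839 CPM in tubules. The order of libraries by this sum can therefore follow Kap as well as tubule content, and no sum without Kap is given. The main contributors to the neutrophil sums were S100a9, up to 45.4 CPM, and S100a8, up to 34.1 CPM, while Ly6g did not pass 0.125 CPM in any library. In sham male tubule replicate 1, Adgrf5, a gene also known from collecting duct cells, made up 65.5% of the sum of the 20 genes, beside the highest collecting duct marker sum of the tubules (1178 CPM), and 13 of 42 members were over 2-fold below the tubule median per 1000 of these reads in that library. The part of these other cells in the results below was not tested except where a value without the library is given.

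**Figure D1:**
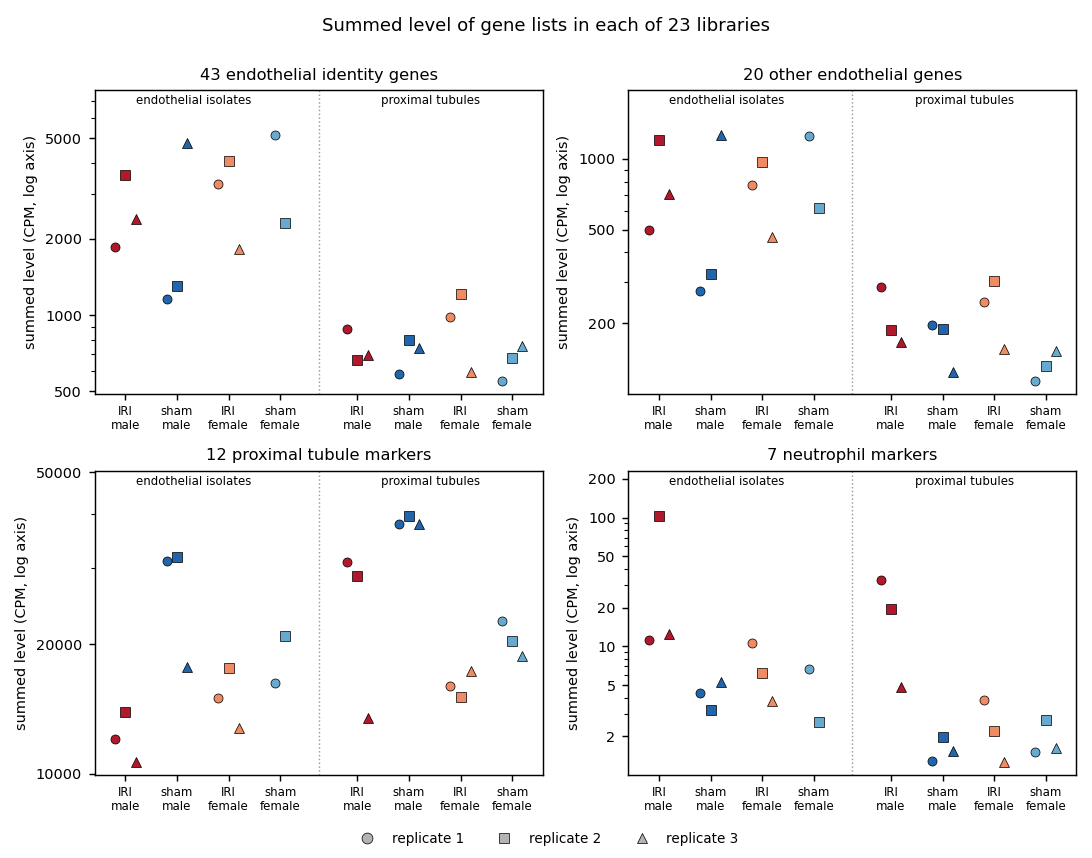
Summed level of 4 gene lists in each library (CPM, log axis), by group; each symbol is 1 library and its shape the replicate number. The 43 members span 1154 to 5146 CPM in endothelial isolates and 546 to 1208 CPM in tubules; the proximal tubule markers span 10644 to 31860 CPM in isolates and 13453 to 39625 CPM in tubules.

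The order of the members' levels, compared between genes as TPM (a transcript's share of a library after division by its length), was led by surface and secreted genes. Esam, an adhesion molecule of endothelial junctions, averaged 129 ± 64.7 TPM over the 11 endothelial libraries (SD), with a range of 38.7 to 262 TPM. It was followed by Emcn, a sialoglycoprotein of capillaries and veins (65.4 ± 35.1 TPM), Egfl7, a secreted matrix protein (65.0 ± 30.0 TPM), and Igfbp5, a secreted binding protein of insulin-like growth factors (48.0 ± 33.6 TPM). Eng, a TGF-beta co-receptor, led the receptors (33.5 ± 17.5 TPM), ahead of the VEGF and semaphorin co-receptor Nrp1 (28.5 ± 17.0 TPM) and Kdr (20.1 ± 13.3 TPM). Among the transcription factors the highest means were those of Sox17 (12.9 ± 6.54 TPM), Ets1 (12.5 ± 8.82 TPM) and Gata2 (11.5 ± 4.14 TPM), and Ramp2, a partner of the adrenomedullin receptor, led the mediator genes (24.1 ± 9.79 TPM). At the low end stood Aplnr, the apelin receptor (1.10 ± 1.03 TPM), Gata5, a zinc-finger factor (1.02 ± 0.773 TPM), Apln, which encodes its ligand apelin (0.637 ± 0.329 TPM), and Lyve1, a hyaluronan receptor of lymphatic vessels (0.0715 ± 0.151 TPM). Each member's mean lay within 1 SD of the next mean below it, with the exception of Apln and Lyve1. All members were measured in the same libraries, so this SD between libraries does not show whether neighbours differ. Esam, for example, had a higher mean than Emcn in every isolate group, as at 135 against 70.3 TPM in IRI females and 88.4 against 51.3 TPM in sham males.

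Lyve1 was close to undetected: it did not pass 1.69 CPM in any library and was at 0 in 8 of 12 tubule libraries, and it passed the low-count filter only in the fit of both isolations. No fold change is given for it. The other lymphatic markers Ccl21a and Mmrn1 stayed at or below 1.64 and 0.446 CPM, while Prox1, also known from distal nephron cells, and Pdpn, also known from podocytes, reached 20.5 and 45.1 CPM.

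The members were higher in endothelial isolates than in tubules, both after injury and after sham surgery. In the fit of both isolations, 30 of 43 members were called higher in IRI isolates than in IRI tubules, against 3.90% of all 21206 genes called in that direction, and 36 of 43 were called higher in sham isolates than in sham tubules, against 10.4% of all genes; none was called lower. Podocyte markers moved with this difference, at a mean sum of 1249 CPM in isolates and 225 CPM in tubules beside 2885 and 760 CPM for the 43 members, and their part was not tested. A member was called at an adjusted p under 0.05 by edgeR's quasi-likelihood test with Benjamini-Hochberg adjustment over all genes tested. The median log2 change of the members was 1.92 after injury and 2.54 after sham surgery, beside 0.02 and 0.00 over all genes.

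Pecam1, the target of the beads (GRCm38 chromosome 11, 106654217 to 106750628, minus strand), stood at 101, 166 and 135 CPM in isolates of IRI males and at 139, 168 and 98.0 CPM in isolates of IRI females. In IRI tubules it stood at 49.0, 44.2 and 41.3 CPM in males and 35.6, 56.4 and 24.5 CPM in females. Every IRI isolate lay above every IRI tubule library, by a log2 change of 1.69 ± 0.30 (SE, adjusted p = 0.0063). In sham isolates Pecam1 had 66.8, 58.9 and 200 CPM in males and 217 and 101 CPM in females, against 30.6, 41.2 and 22.4 CPM in sham male tubules and 27.5, 22.9 and 43 CPM in sham female tubules (2.07 ± 0.32, adjusted p = 2.9e-04). Those groups did not overlap either.

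Cdh5 (chromosome 8, 104101625 to 104144511, plus strand), which encodes VE-cadherin, had 60.0, 247 and 98.8 CPM in IRI male isolates and 95.3, 127 and 57.2 CPM in IRI female isolates. The IRI tubules had 47.4, 26.5 and 15.6 CPM in males and 19.7, 30.7 and 8.63 CPM in females. The groups did not overlap, although the lowest isolate was close to the highest tubule library (2.21 ± 0.45, adjusted p = 0.010). In sham mice the difference was 2.80 ± 0.47 (adjusted p = 6.1e-04), with 28.6, 35.7 and 138 CPM in male isolates and 150 and 66.5 CPM in female isolates, all above the 8.35 to 16.3 CPM of sham tubules.

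Among the junction and surface genes 13 of 14 were called in each condition; below, each gene's lowest, median and highest library is given. Icam2, a ligand of leukocyte integrins, had 5.73, 16.0 and 25.6 CPM in IRI isolates, against 1.10, 2.24 and 6.17 CPM in IRI tubules (2.54 ± 0.40, adjusted p = 0.0041). In sham isolates it had 7.99, 16.7 and 33.0 CPM, against 1.53, 2.59 and 4.53 CPM in sham tubules (2.84 ± 0.41, adjusted p = 2.0e-04). The IRI groups overlapped through IRI male isolate 2, the lowest isolate, and the sham groups did not overlap. Esam had 37.5, 57.7 and 138 CPM in IRI isolates, against 9.93, 17.3 and 31.1 CPM in IRI tubules (1.88 ± 0.40), and 22.3, 39.7 and 91.9 CPM in sham isolates, against 5.29, 9.20 and 11.7 CPM in sham tubules (2.55 ± 0.42). Mmrn2, a matrix protein of endothelium, had 35.8, 59.1 and 87.0 CPM in IRI isolates, against 6.15, 11.8 and 19.1 CPM in IRI tubules (2.25 ± 0.38). Neither gene overlapped between the isolations. Cd34, a sialomucin, had 25.2, 52.7 and 80.7 CPM in IRI isolates, against 4.76, 11.6 and 27.6 CPM in IRI tubules (2.14 ± 0.35), with overlap through the same isolate. Egfl7 had 35.9, 46.0 and 71.1 CPM in IRI isolates, against 8.00, 14.8 and 19.4 CPM in IRI tubules (1.82 ± 0.32), without overlap. Emcn, Clec14a, Robo4, Cldn5 of tight junctions, and the gap junction genes Gja4 and Gja5 passed in both conditions as well, with log2 changes of 1.71 to 3.04 after injury and 2.15 to 3.30 after sham surgery. The exception was Plvap, which builds the diaphragms of peritubular capillaries: it averaged 91.5 CPM in IRI isolates and 45.9 CPM in IRI tubules (1.09 ± 0.49, adjusted p = 0.25), and 69.1 CPM in sham isolates and 39.9 CPM in sham tubules (0.84 ± 0.51, adjusted p = 0.34). Its highest isolate was at 154 CPM and its lowest at 11.2 CPM.

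Of the receptors, 9 of 10 passed after injury and all 10 after sham surgery. Eng had 96.8, 136 and 225 CPM in IRI isolates (lowest, median, highest), against 16.0, 31.7 and 55.4 CPM in IRI tubules (2.21 ± 0.35, adjusted p = 0.0042). In sham isolates it had 65.8, 123 and 294 CPM, against 14.0, 21.8 and 27.6 CPM in sham tubules (2.91 ± 0.37, adjusted p = 8.0e-05). Neither pair of groups overlapped, and this was the smallest adjusted p of the sham comparison. Kdr, the main signalling receptor for VEGF, had 80.2, 164 and 346 CPM in IRI isolates, against 15.7, 37.5 and 61.0 CPM in IRI tubules (2.40 ± 0.43). In sham isolates Kdr had 81.0, 172 and 433 CPM, against 17.8, 24.4 and 41.1 CPM in sham tubules (3.12 ± 0.46), again without overlap. Tie1, the orphan partner of Tek, differed by 2.15 ± 0.37 after injury and 2.54 ± 0.38 after sham surgery, and Efnb2, an ephrin of arterial cells, by 1.80 ± 0.36 and 2.63 ± 0.38. Flt1, Flt4, Tek, Nrp1 and Ptprb, a phosphatase that acts on Tek, lay between 1.57 and 2.06 after injury and between 2.20 and 2.78 after sham surgery. Nrp2 passed in sham mice (2.36 ± 0.57) and not after injury (1.80 ± 0.54, adjusted p = 0.061).

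All 8 transcription factors passed in sham mice and 5 of them after injury. Sox17, of the SoxF group, had 16.9, 26.2 and 56.5 CPM in IRI isolates (lowest, median, highest), against 2.48, 6.93 and 10.2 CPM in IRI tubules (2.14 ± 0.44). In sham isolates it had 10.2, 19.6 and 51.6 CPM, against 1.50, 2.50 and 3.63 CPM in sham tubules (3.51 ± 0.48). The groups did not overlap in either condition. Erg, Fli1, Ets1 and Sox18 passed in both conditions, at 1.82 to 2.10 after injury and 2.37 to 3.10 after sham surgery. Gata2 averaged 27.0 CPM in IRI isolates and 19.0 CPM in IRI tubules (0.55 ± 0.31, adjusted p = 0.40), and 29.4 CPM in sham isolates and 8.70 CPM in sham tubules (1.85 ± 0.33, adjusted p = 9.6e-04). Sox7 (1.43 ± 0.53, adjusted p = 0.14) and Gata5 (2.78 ± 0.89, adjusted p = 0.084) did not pass after injury either.

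The mediator genes and the vessel-bed genes were less uniform. Calcrl, the receptor that pairs with Ramp2 and Ramp3 to bind adrenomedullin, was 2.16 ± 0.41 higher in IRI isolates than in IRI tubules and 2.89 ± 0.44 higher in sham isolates than in sham tubules. Ramp2 had 16.4, 21.4 and 25.8 CPM in IRI isolates (lowest, median, highest), against 6.71, 8.46 and 12.1 CPM in IRI tubules (1.22 ± 0.29), without overlap, and it also passed in sham mice (1.56 ± 0.31). Ehd3, a membrane-trafficking gene known in mouse kidney from glomerular endothelium, was 2.63 ± 0.53 higher after injury and 3.50 ± 0.56 after sham surgery. Ramp3, Apln, Aplnr, Gpihbp1, which carries lipoprotein lipase across capillaries, and Igfbp3, another binding protein of insulin-like growth factors, passed in neither. Apln averaged 4.35 CPM in IRI isolates and 3.09 CPM in IRI tubules, and 2.59 CPM in sham isolates and 4.31 CPM in sham tubules. S1pr1, a receptor for sphingosine 1-phosphate, and Igfbp5 passed in sham mice (2.44 ± 0.60 and 1.37 ± 0.43) and not after injury (adjusted p = 0.068 and 0.051).

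**Figure D2:**
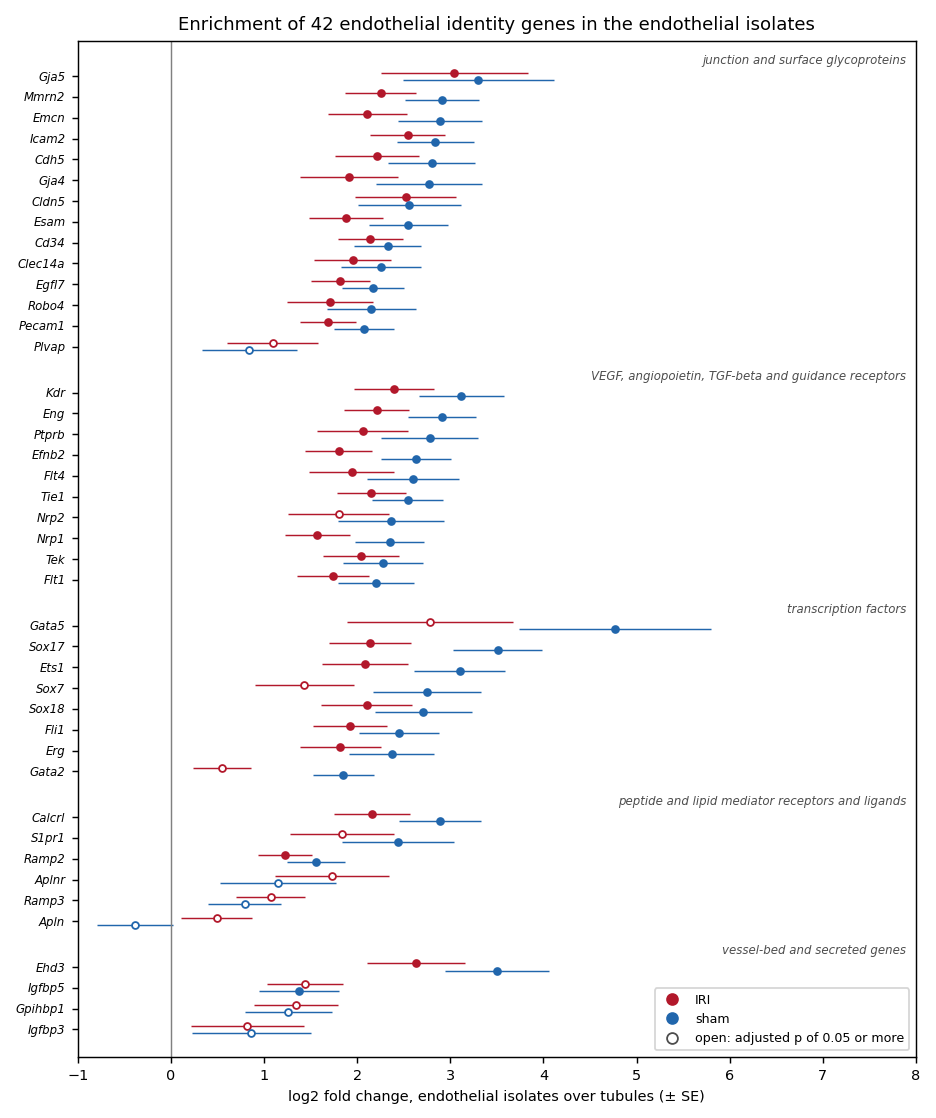
Log2 fold change of endothelial isolates over tubules (± SE) for 42 members, after injury (red) and after sham surgery (blue), grouped by role; Lyve1 is left out because it was close to 0. Filled points have an adjusted p under 0.05: 30 after injury and 36 after sham surgery, with Plvap, Ramp3, Apln, Aplnr, Gpihbp1 and Igfbp3 open in both conditions.

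That the sham difference was wider than the IRI one was itself tested and not called for any member. In edgeR's test of the injury change in isolates minus that in tubules, 0 of 43 members were called, 2 had an unadjusted p under 0.05 (Gata2 and Sox17) and DESeq2 called 0; 0% of all genes were called. The sign was negative for 36 of 43 members and for all 20 other endothelial genes, with a median of -0.55 in both lists and -0.02 over all genes. This sign rested on sham male replicate 3: without it the median of the members was 0.03, with 23 of 43 positive. Without sham female replicate 1 the median was smaller but still negative, at -0.13, with 13 positive.

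Within the isolates, the members moved together from library to library and spread widely inside groups. Their summed level was 1863, 3579 and 2392 CPM in IRI males, against 1154, 1300 and 4799 CPM in sham males. It was 3295, 4067 and 1830 CPM in IRI females, against 5146 and 2311 CPM in sham females. The highest and the lowest isolates of all were both sham libraries, and in each sex the IRI range lay within the sham range or overlapped it. Of the 42 members other than Lyve1, 42 were above their own mean over the isolates in sham female replicate 1 and 41 in sham male replicate 3, whereas 0 were above it in sham male replicates 1 and 2 and 3 in IRI male replicate 1.

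The 20 other endothelial genes followed the same pattern, with 497, 1207 and 708 CPM in IRI males, 274, 325 and 1262 CPM in sham males, 772, 974 and 467 CPM in IRI females, and 1253 and 620 CPM in sham females. Expressed per 1000 of their reads, the members spread less. The ratio of the highest to the lowest isolate had a median over the 42 members of 6.02 in CPM and of 2.73 per 1000 endothelial reads, with a narrower range for 33 of 42 members and one under 2-fold for 11. Leaving out IRI male replicate 2, the medians were 4.81 in CPM and 1.99 per 1000 endothelial reads, the range was narrower for 39 of 42 members and it stayed under 2-fold for 21 of them, while in CPM it stayed under 2-fold for 0 in either case. In the tubules the scale closed less of the spread: the median ratio over 41 members was 5.68 in CPM and 4.57 per 1000 endothelial reads, narrower for 30 of 41 and under 2-fold for 5. Without IRI male tubule replicates 1 and 2 it was 3.96 and 2.99, narrower for 34 and under 2-fold for 6.

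Single members show what this scale does. Eng spanned 65.8 to 294 CPM in the isolates, but 182 to 245 per 1000 endothelial reads outside IRI male replicate 2, where it was 113. Tie1 had 46.5, 73.9 and 71.7 CPM in IRI males and 27.5, 27.8 and 117 CPM in sham males, while per 1000 endothelial reads it had 93.6, 61.2 and 101 in IRI males and 100, 85.5 and 92.4 in sham males. Icam2 outside IRI male replicate 2 lay between 22.3 and 34.3 per 1000 reads, against 7.99 to 33.0 CPM. Plvap behaved differently from these. It had 124, 68.3 and 163 per 1000 reads in IRI males and 40.9, 43.7 and 115 in sham males. In females it had 100, 60.2 and 329 after injury and 90.7 and 98.1 after sham surgery. The 2 isolates with the highest proximal tubule marker sums, which include Kap, were also its lowest.

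Against this spread, injury gave no called member in the endothelial isolates. In IRI over sham males, edgeR called 0 of 42 tested members, 2 had an unadjusted p under 0.05 and DESeq2 called 1, against 0.864% of all 19910 genes called by edgeR. In females edgeR called 0 members, 0 had an unadjusted p under 0.05, DESeq2 called 0, and 0% of all genes were called. The median log2 change of the members was 0.31 in males and -0.21 in females, beside 0.29 and -0.29 for the 20 other endothelial genes. Scaled to those 20 genes, the medians of the members were -0.13 in males and 0.14 in females, and 0 members were called in either sex. Scaled by the median ratio of those genes, a choice made after seeing the data, they were 0.09 and 0.04. The unscaled medians rested on single sham libraries: without sham male replicate 3 the male median was 1.12, with 40 of 42 positive, and without sham female replicate 1 the female median was 0.43, with 43 of 43 positive.

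In IRI over sham males, the smallest p was that of Apln, with 2.09, 3.74 and 6.34 CPM in IRI males and 0.847, 1.11 and 2.36 CPM in sham males. The groups overlapped by 1 library, and the change of 1.50 ± 0.46 had an adjusted p of 0.16. This was the member DESeq2 called (1.52 ± 0.48, adjusted p = 0.029), and in the authors' deposited table it was the 1 member that passed, with a log2 change of 1.18 and an adjusted p of 0.038. Scaled to the 20 endothelial genes its change was 0.96 ± 0.63 (adjusted p = 0.51). Without sham male replicate 3, the library rich in endothelial RNA, edgeR called Apln (2.01 ± 0.47), Igfbp3 (4.64 ± 1.02) and Plvap (2.72 ± 0.50), 3 members against 3.60% of all genes.

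Gpihbp1 had 5.98, 30.0 and 8.76 CPM in isolates of IRI males and 3.41, 2.24 and 10.4 CPM in sham males (1.51 ± 0.66, adjusted p = 0.31). IRI replicate 2 alone was above the sham range, and without it the change was 0.47 ± 0.55. Igfbp5 had 241, 85.3 and 285 CPM in IRI males and 223, 311 and 882 CPM in sham males (-1.20 ± 0.57, adjusted p = 0.35), and without IRI replicate 2 its change was -0.84 ± 0.58. On the scale of 1000 endothelial reads Igfbp5 had 486, 70.7 and 402 in IRI males, against 815, 957 and 699 in sham males, and the groups did not overlap there. The 3 IRI male isolates were also its lowest of all on that scale, since IRI females had 846, 876 and 626 and sham females 800 and 830.

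In IRI over sham females, the members with the smallest p were Sox17, Ptprb and Nrp1, none near the threshold. Sox17 had 21.5, 28.0 and 24.5 CPM in IRI females and 51.6 and 19.6 CPM in sham females. Ptprb had 130, 210 and 55.6 CPM in IRI females and 277 and 123 CPM in sham females. Nrp1 had 215, 271 and 67.2 CPM in IRI females and 332 and 159 CPM in sham females. In each case sham replicate 1 was highest and sham replicate 2 lay inside or below the IRI range. The changes were -0.51 ± 0.67, -0.60 ± 0.81 and -0.42 ± 0.62, and without sham replicate 1 the sign turned, to 0.31, 0.07 and 0.17.

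The sexes were not distinguished in the isolates either. Male over female gave 0 called members after injury by edgeR, with 1 at an unadjusted p under 0.05 and 0 by DESeq2, against 1.50% of all genes. After sham surgery it gave 0, with 1 at an unadjusted p under 0.05 (Apln) and 0 by DESeq2, against 0.432% of all genes. The median log2 change was -0.10 after injury and -0.58 after sham surgery, and scaled to the 20 endothelial genes it was -0.18 and 0.02. After sham surgery it was -1.53 without sham male replicate 3 and 0.09 without sham female replicate 1. The test of the male minus the female injury change called 0 members by edgeR, with 0 at an unadjusted p under 0.05 and 0 by DESeq2, and 0% of all genes. Igfbp5 was the member at p under 0.05 after injury: 241, 85.3 and 285 CPM in IRI males lay below the 654, 854 and 293 CPM of IRI females (-1.53 ± 0.58, adjusted p = 0.26; -1.16 ± 0.58 without IRI male replicate 2).

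**Figure D3:**
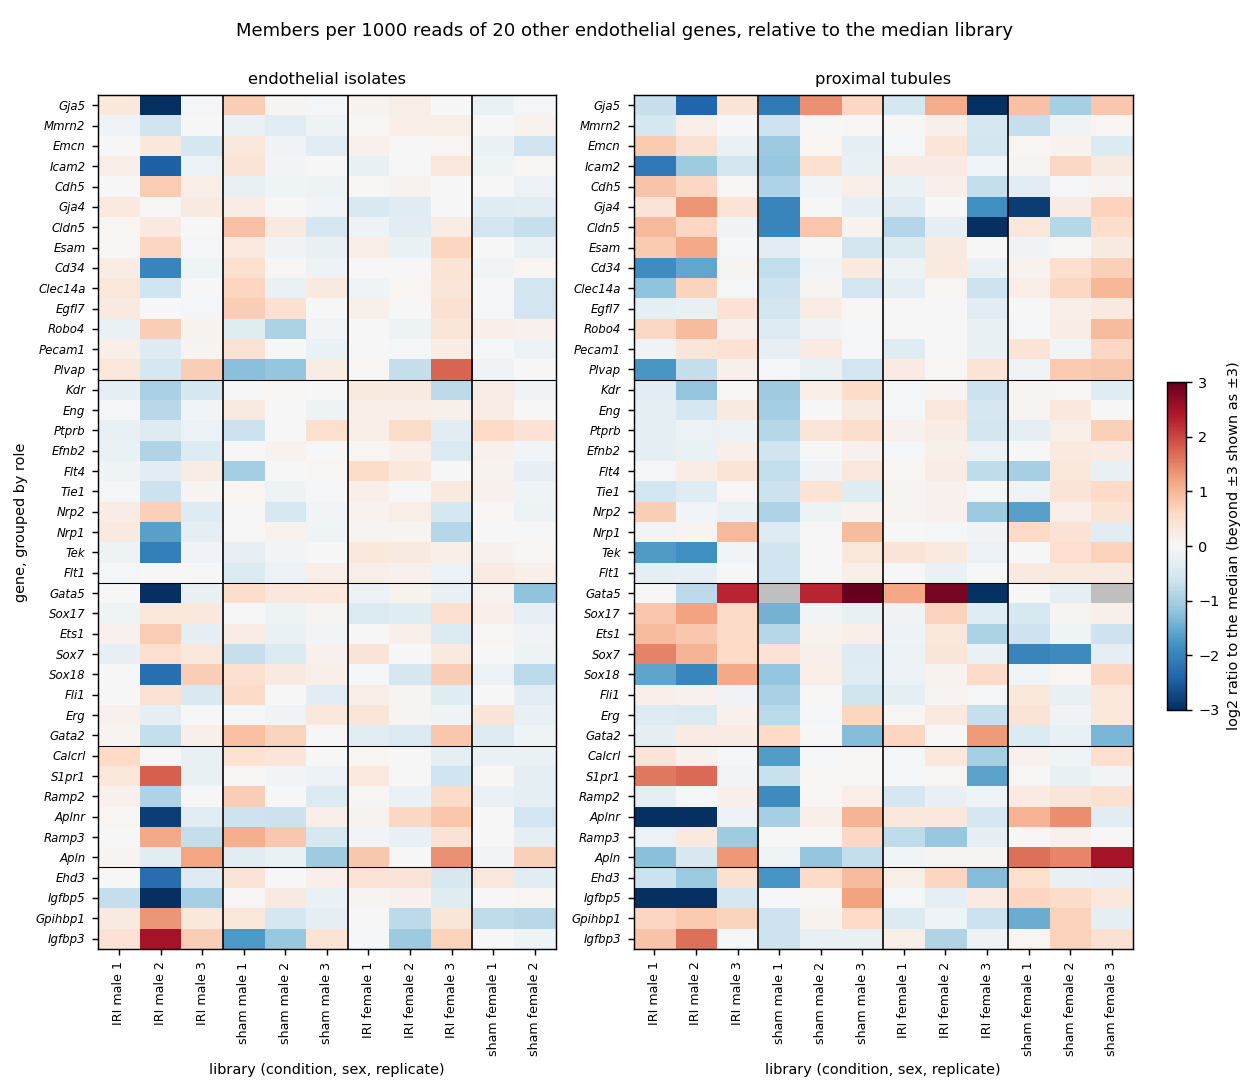
Level of 42 members per 1000 reads of 20 other endothelial genes in each library, as the log2 ratio to the median library of the same isolation (colour; grey marks 0 reads). Columns are libraries and rows are genes by role. Most isolates are pale, IRI male isolate 2 has 14 members over 2-fold from the median, IRI male tubules 1 and 2 have 11 and 14, and sham male tubule 1, where Adgrf5 makes up 65.5% of the 20-gene sum, has 13, all low.

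IRI male isolate replicate 2 was the library in which the members did not keep their proportions. On the scale of 1000 endothelial reads, 14 of 42 members lay more than 2-fold from the median of the isolates, 4 above it and 10 below, whereas in each of the other 10 isolates 0 to 3 did. Igfbp3 was at 459 per 1000 reads in it and at 24.4 to 135 in the other isolates. S1pr1 was at 152, against 29.0 to 54.9 elsewhere, and Gpihbp1 and Ramp3 were the other 2 high members. On the low side, Igfbp5 was at 70.7 against 402 to 957, Tek at 20.3 against 71.2 to 104, Cd34 at 20.9 against 74.3 to 115, and Ehd3 at 43.4 against 152 to 284. Gja5, an arterial gap junction gene, was at 1.38 against 31.3 to 60.1, Gata5 at 0.309 against 3.94 to 13.2, Icam2 at 4.75 against 22.3 to 34.3, and Sox18 at 6.06 against 16.5 to 48.3. Nrp1 and Aplnr completed the 10. Its summed level of the 20 endothelial genes was 1207 CPM, of which Adgrf5 made up 33.6%, against 20.7% to 29.3% in the other isolates. These genes did not keep their proportions there either: Kank3, Pcdh12 and Rasgrp3 were at 6.88, 6.21 and 9.30 CPM, below every other isolate, while Adgrf5 and Cd93 were at 405 and 150 CPM, above every other.

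The tubule libraries of IRI males held a similar departure in replicates 1 and 2, while replicate 3 departed less, with Igfbp5 also below all tubules of the other groups. Per 1000 endothelial reads, Igfbp5 had 133, 131 and 795 in the 3 IRI male tubule libraries, against 944 to 1351 in IRI females and 1083 to 2637 in all sham tubules. S1pr1 had 128, 137 and 40.3, against 14.0 to 44.5 in all other tubules, and Igfbp3 had 399, 695 and 210, against 118 to 353. Tek had 24.6, 22.3 and 74.7, against 52.2 to 128, and Cd34 had 20.5, 25.3 and 78.5, against 44.2 to 121. Icam2 had 3.85, 8.19 and 11.8, against 7.77 to 26.4. These genes lay on the same side in IRI male isolate 2, whereas Ehd3 and Ramp3 in both tubule libraries stayed inside the range of the other tubules. The lower ends given for Tek, Cd34 and Icam2 come from sham male tubule 1. With Adgrf5 left out of the sum, Ehd3 was at 67.1 in replicate 2, below the 77.3 to 254 of the other groups. In replicate 1 it was at 93.5, inside that range. Icam2 then had 5.68, 11.9 and 15.3, against 19.4 to 35.9 in the other groups. IRI male isolate 2 and IRI male tubules 1 and 2 carried the raised neutrophil sums. The part of those cells in the departure was not tested. Every isolate shares a number in its title with a tubule library of its own group, and the labels do not say whether this means the same mouse. The isolate and tubule replicates 2 of IRI males share one. IRI male tubule replicate 1 shares its number with isolate replicate 1, where 0 of 42 members lay over 2-fold from the isolate median. The main tests of isolates over tubules did not use these numbers. No further test is given, because the 3 departing libraries were singled out after their values were seen.

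Endothelial genes were detected in the tubules of every mouse group, and there some members passed the injury test in males. The summed level of the 43 members was 880, 662 and 692 CPM in IRI males, 584, 798 and 738 CPM in sham males, 983, 1208 and 594 CPM in IRI females, and 546, 677 and 754 CPM in sham females. In IRI over sham male tubules, 2 of 42 tested members were called higher (Sox17 and Igfbp3) and 1 lower (Igfbp5). Over all 18369 genes the shares were 10.6% higher and 8.43% lower, 19.0% together, so the members' count was not above the background. Their median log2 change was 0.42, beside 0.27 for the 20 other endothelial genes and -0.03 over all genes. Per 1000 endothelial reads, the median over all tubules was above that over all isolates for Igfbp5 (1133 against 800) and Igfbp3 (220 against 81.1). For Sox17 it was below (20.4 against 37.3). Whether cells other than endothelial ones gave part of these tubule reads was not tested.

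Igfbp5 (chromosome 1, 72857932 to 72874884, minus strand) had 38.0, 24.6 and 132 CPM in tubules of IRI males and 213, 219 and 328 CPM in those of sham males. All 3 IRI libraries lay below the sham range, with replicates 1 and 2 far below replicate 3. The change was -1.97 ± 0.48 (adjusted p = 0.020), and leaving out 1 library at a time gave -3.01 to -1.58, with a call in 3 of 6 such fits. Relative to the 20 endothelial genes it was -2.20 ± 0.56 (adjusted p = 0.034), the 1 member called on that scale, against 3.57% of all genes. With those genes as a covariate in place of a scale it was -2.08 ± 0.52 (adjusted p = 0.033), and 4 members were called, against 12.2% of all genes. In the authors' deposited table it also passed, with a log2 change of -1.69 and an adjusted p of 9.3e-04. The 20 genes did not keep their proportions here. Cd93 had 39.0 and 31.6 CPM in IRI male replicates 1 and 2, against 6.03 to 13.8 CPM in sham males. Exoc3l2 had 6.67 and 3.17 CPM, against 5.96 to 13.7 CPM. Adgrf5 made up 65.5% of their sum in sham male replicate 1. With Adgrf5 left out, Igfbp5 relative to their reads was at 197, 191 and 1034 in IRI males and 3139, 1735 and 3506 in sham males. The scaled and covariate changes of Igfbp3 and Sox17 below share this limit.

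Igfbp3 (chromosome 11, 7206086 to 7213923, minus strand) had 114, 130 and 34.9 CPM in tubules of IRI males and 27.9, 35.8 and 23.7 CPM in those of sham males. Replicates 1 and 2 were above every sham library and replicate 3 was within the sham range. The change of 1.69 ± 0.44 (adjusted p = 0.025) became 1.32 ± 0.42 (adjusted p = 0.088) relative to the 20 endothelial genes and 1.60 ± 0.45 (adjusted p = 0.046) with them as a covariate.

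Sox17 (chromosome 1, 4490931 to 4497354, minus strand) had 10.2, 8.80 and 5.05 CPM in tubules of IRI males and 1.50, 3.63 and 2.16 CPM in those of sham males, without overlap. Its change was 1.72 ± 0.53 (adjusted p = 0.043), 1.35 ± 0.48 (adjusted p = 0.12) relative to the 20 endothelial genes, and 1.48 ± 0.35 (adjusted p = 0.027) with them as a covariate. Tek was the fourth member called in that fit (-1.03 ± 0.30, adjusted p = 0.049). Of the other members, 6 had an unadjusted p under 0.05 without passing the adjustment, all higher in IRI males: S1pr1 (1.88 ± 0.64), Esam (1.34 ± 0.46), Ets1 (1.32 ± 0.49), Emcn (1.21 ± 0.50), Cdh5 (1.21 ± 0.48) and Robo4 (1.15 ± 0.44). S1pr1 had 36.7, 25.7 and 6.70 CPM in IRI males and 5.24, 8.23 and 5.47 CPM in sham males.

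These calls depended on which libraries were kept. Without IRI male replicate 3, 10 members were called: Igfbp3, S1pr1, Sox17, Esam, Ets1, Emcn, Cdh5 and Robo4 higher, and Igfbp5 and Aplnr lower, against 42.5% of all genes. Without IRI male replicate 1, IRI male replicate 2 or sham male replicate 3, 0 were called, and without sham male replicate 1 or 2 only Igfbp5 was.

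**Figure D4:**
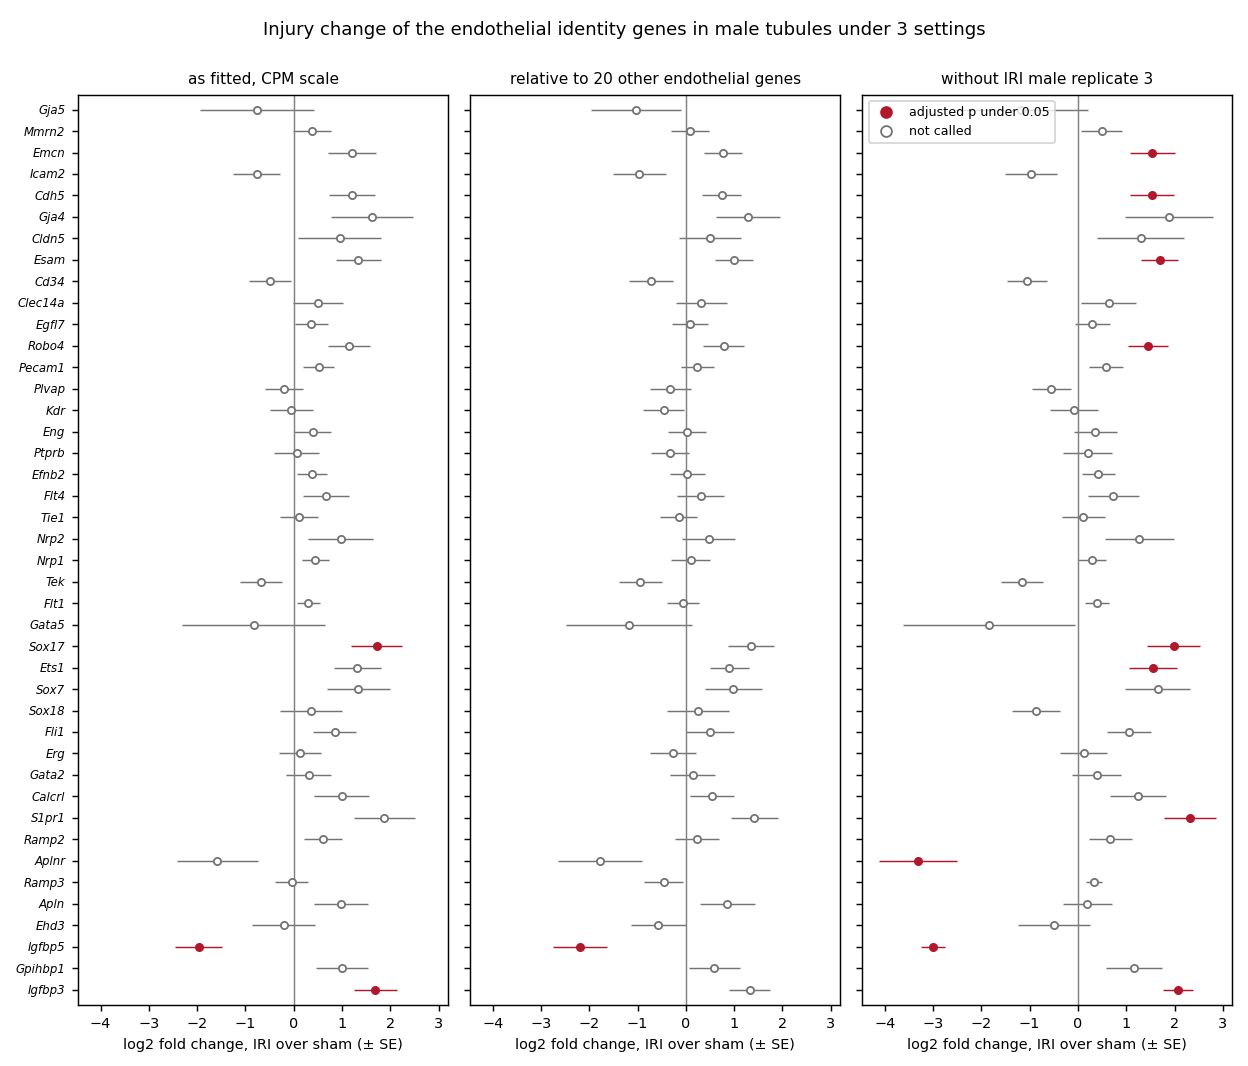
Log2 fold change of IRI over sham male tubules (± SE) for 42 members in 3 settings: the CPM scale, relative to 20 other endothelial genes, and without IRI male replicate 3. Red points have an adjusted p under 0.05: 3 in the first setting, 1 in the second (Igfbp5) and 10 in the third.

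In tubules of females, edgeR called 0 members after injury, 4 had an unadjusted p under 0.05 and DESeq2 called 1, against 0.0109% of all genes called by edgeR. Gata2, a zinc-finger factor of endothelial and blood lineages that is also known from collecting duct, had 25.3, 20.3 and 25.1 CPM in IRI females and 5.62, 7.52 and 3.92 CPM in sham females. Every IRI library was above every sham library, and the change was 2.04 ± 0.47 (adjusted p = 0.11 by edgeR, 0.0017 by DESeq2). In females it alone among the members passed in the authors' deposited table (log2 1.82, adjusted p = 0.011). Collecting duct markers moved with it: they summed to 946, 809 and 709 CPM in IRI females and 221, 192 and 88.4 CPM in sham females, and their part in the Gata2 difference was not tested.

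Sox7 had 1.71, 3.04 and 1.06 CPM in tubules of IRI females and 0.225, 0.273 and 0.966 CPM in those of sham females (1.97 ± 0.69, adjusted p = 0.29). Ets1 had 16.4, 28.1 and 5.95 CPM in IRI females and 5.49, 8.96 and 7.30 CPM in sham females (1.20 ± 0.49, adjusted p = 0.37). Sox7 did not overlap and Ets1 did. The sign was positive for 38 of 42 members, with a median of 0.59 beside 0.00 over all genes. Relative to the sum of the 20 other endothelial genes the median was -0.27 and the sign positive for 8. Scaled by the median ratio of those genes it was -0.05 and positive for 17. Adgrf5 made up 33.1%, 27.1% and 47.8% of that sum in IRI females and 30.0%, 25.7% and 17.1% in sham females, and its part was not tested. The thick ascending limb and distal markers moved with the unscaled change, at 6401, 7639 and 5917 CPM in IRI females and 1909, 2307 and 2165 CPM in sham females, and their part was not tested.

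Between the sexes, 3 members were called lower in IRI male than in IRI female tubules and 0 higher, against 10.5% of all genes called lower and 23.3% in either direction. Igfbp5, at 38.0, 24.6 and 132 CPM in IRI males, had 272, 285 and 211 CPM in IRI females (-1.99 ± 0.48, adjusted p = 0.015), without overlap. Tek had 7.02, 4.19 and 12.4 CPM in IRI males and 25.6, 29.2 and 11.0 CPM in IRI females (-1.48 ± 0.44, adjusted p = 0.034), where the highest male library lay above the lowest female one. Icam2 had 1.10, 1.54 and 1.96 CPM in IRI males and 5.06, 6.17 and 2.52 CPM in IRI females (-1.58 ± 0.48, adjusted p = 0.037), without overlap.

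The IRI females differed in yield: replicates 1 and 2 had 247 and 302 CPM of the 20 endothelial genes and replicate 3 had 156 CPM, beside 285, 188 and 166 CPM in IRI males. In IRI male replicates 1 and 2 those genes did not keep their proportions, as given above for Cd93 and Exoc3l2. Relative to the sum of those genes, 0 members were called by edgeR, against 6.70% of all genes, with Igfbp5 at -1.68 ± 0.55 (adjusted p = 0.075), Tek at -1.16 ± 0.46 and Icam2 at -1.26 ± 0.54. Scaled by their median ratio instead, a choice made after seeing the data, Igfbp5 and S1pr1 were called. With the 20 genes as a covariate 7 members were called, against 18.9% of all genes: Igfbp5 (-1.93 ± 0.50, adjusted p = 0.025), Tek (-1.17 ± 0.29, adjusted p = 0.021) and Icam2 (-1.24 ± 0.39, adjusted p = 0.048) lower, and Ets1, Cldn5, S1pr1 and Gja4 higher. Without IRI male replicate 3, 10 members were called, against 44.1% of all genes: Igfbp5, Tek, Icam2, Cd34, Plvap, Aplnr and Sox18 lower, and Igfbp3, S1pr1 and Ramp3 higher. Without IRI male replicate 1, 0 were called. Without IRI male replicate 2, IRI female replicate 1 or IRI female replicate 2, Igfbp5 alone was.

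In sham tubules 1 member was called, Apln, lower in males, against 5.80% of all genes in either direction and 2.56% lower. It had 2.42, 1.11 and 1.03 CPM in sham males and 4.82, 4.89 and 11.6 CPM in sham females, without overlap (-2.25 ± 0.58, adjusted p = 0.044). The call was lost in all 6 fits that left out 1 library, with log2 changes of -2.74 to -1.69. Without sham male replicate 3, Gata2 was called higher in males instead (1.46 ± 0.28, adjusted p = 0.012). Gata2 had 19.4, 12.4 and 3.37 CPM in sham males and 5.62, 7.52 and 3.92 CPM in sham females. Collecting duct markers moved with it, at 1178, 563 and 171 CPM in sham males and 221, 192 and 88.4 CPM in sham females. Their part in this call was not tested. In the authors' deposited table Apln passed (log2 -1.91, adjusted p = 0.0029).

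The male minus female injury change in tubules called 0 members by edgeR, with 4 at an unadjusted p under 0.05 and 1 by DESeq2 (Igfbp5), against 0.855% of all genes. Those 4 were Igfbp5 (-2.24 ± 0.67, adjusted p = 0.12), Gata2 (-1.73 ± 0.65), Apln (2.12 ± 0.79) and Igfbp3 (1.59 ± 0.61). Without IRI male replicate 3, Igfbp5, Igfbp3, Tek and Aplnr were called, 4 members against 30.5% of all genes. Without sham male replicate 3, Gata2 was called (-2.17 ± 0.37, adjusted p = 0.029). The part of the collecting duct markers, which moved with Gata2 in sham tubules and in female tubules, was not tested here either.

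**Figure D5:**
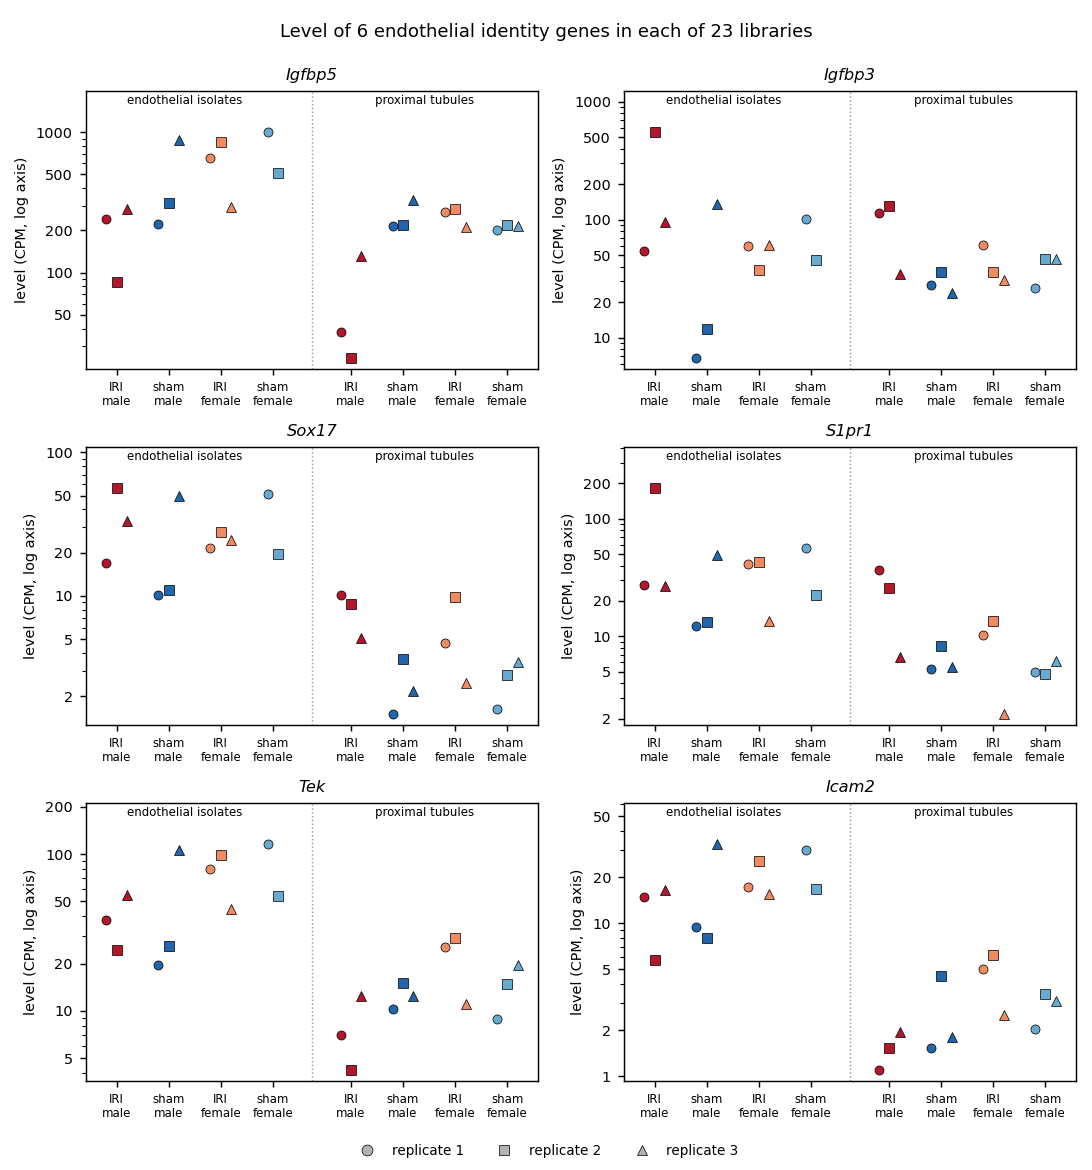
Level of 6 members in each library (CPM, log axis), with endothelial isolates left and tubules right and IRI left of sham in each sex; the shape is the replicate number. Igfbp5 is lowest and Igfbp3 and S1pr1 are highest in IRI male isolate 2 among isolates and in IRI male tubules 1 and 2 among tubules, while Sox17 is higher in all 3 IRI male tubule libraries than in sham male tubules.

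Promoter sequences were available in RefSeq (GRCm38.p6) for 26 of 43 members, as windows of 250 bases before to 50 bases after a start site. They are shown for the members called in the tubule comparisons that have a window, Igfbp5, Igfbp3, Tek and Apln. Igfbp5 was called lower and Igfbp3 higher in IRI over sham males. Igfbp5 and Tek were called lower in males than in females after injury, and Apln after sham surgery. Capitals mark ETS-type motifs, CAGGAAG or CCGGAAG on either strand, the letters read by the endothelial ETS factors among the members.
Igfbp5, chr1:72874816-72875115, minus strand: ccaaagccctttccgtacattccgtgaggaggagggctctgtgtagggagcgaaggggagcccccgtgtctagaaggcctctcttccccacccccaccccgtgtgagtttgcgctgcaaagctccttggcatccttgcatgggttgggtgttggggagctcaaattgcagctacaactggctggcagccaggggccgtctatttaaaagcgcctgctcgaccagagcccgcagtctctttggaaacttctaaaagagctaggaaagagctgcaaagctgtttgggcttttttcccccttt
Igfbp3, chr11:7213874-7214173, minus strand: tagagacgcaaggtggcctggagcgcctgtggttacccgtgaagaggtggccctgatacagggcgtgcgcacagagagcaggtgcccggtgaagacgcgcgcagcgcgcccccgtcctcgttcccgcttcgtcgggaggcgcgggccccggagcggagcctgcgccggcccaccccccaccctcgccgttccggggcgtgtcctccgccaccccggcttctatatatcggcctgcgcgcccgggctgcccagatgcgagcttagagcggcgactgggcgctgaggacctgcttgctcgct
Tek, chr4:94739039-94739338, plus strand: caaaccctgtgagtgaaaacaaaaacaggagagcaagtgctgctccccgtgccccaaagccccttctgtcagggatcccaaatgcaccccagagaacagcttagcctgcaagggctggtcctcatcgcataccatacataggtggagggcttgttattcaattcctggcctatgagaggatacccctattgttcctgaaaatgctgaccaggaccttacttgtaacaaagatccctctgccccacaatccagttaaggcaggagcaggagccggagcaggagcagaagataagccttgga
Apln, chrX:48034804-48035103, minus strand: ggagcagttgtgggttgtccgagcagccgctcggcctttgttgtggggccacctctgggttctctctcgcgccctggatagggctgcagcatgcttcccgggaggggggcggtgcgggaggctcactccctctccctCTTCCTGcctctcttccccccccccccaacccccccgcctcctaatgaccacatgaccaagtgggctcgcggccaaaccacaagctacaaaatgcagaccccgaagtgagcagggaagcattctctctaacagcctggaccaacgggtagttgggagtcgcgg
Of these windows only that of Apln holds the motif, starting 113 bases before the start site. Over all member windows 10 of 31 (32.3%) held it, against 20.9% of the 32851 windows of all genes, and Egfl7, Cd34, Calcrl, Emcn, Erg, Ehd3, Robo4 and Ramp3 were the other genes with a match. A hypoxia element (AACGTG or GACGTG, either strand) was in 9.68% of the member windows and 10.8% of all windows, and an AP-1 motif (TGACTCA or TGAGTCA) in 0 of 31 and 5.20%. A match describes these letters only.

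The genes around the members were read from lists fixed beside them. Of 10 ligands of the VEGF, angiopoietin, apelin and adrenomedullin families, 2 were called higher and 1 lower in IRI over sham male tubules. Over all genes, 10.6% were called higher and 8.43% lower there. Adm, encoding adrenomedullin, had 34.6, 37.3 and 13.1 CPM in IRI males and 9.88, 10.5 and 8.13 CPM in sham males (1.58 ± 0.38, adjusted p = 0.018), Adm2 was also higher (1.94 ± 0.44), and Vegfa averaged 102 CPM in IRI males and 148 CPM in sham males (-0.53 ± 0.16, adjusted p = 0.037). The lowest IRI library of Adm lay above the highest sham library.

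In IRI male over IRI female tubules, Adm was higher (1.58 ± 0.37) and Vegfb (-0.82 ± 0.18) and Angpt1 (-2.38 ± 0.67, adjusted p = 0.027) were lower, against 23.3% of all genes called in either direction. Angpt1, the ligand that activates Tek, had 1.74, 1.44 and 10.9 CPM in IRI males and 27.7, 23 and 22.3 CPM in IRI females, so replicates 1 and 2 lay below replicate 3 and below all IRI females. In sham tubules it had 7.97, 4.28 and 13.6 CPM in males and 31.6, 20.4 and 29.2 CPM in females, without overlap and without a call. No ligand was called in the endothelial isolates, where 0% to 1.50% of all genes were called in a comparison. Of 10 endothelial Notch genes, 0 were called in any IRI over sham comparison, against 0% to 19.0% of all genes. In isolates over tubules 3 passed as higher after injury, against 3.90% of all genes, and 7 after sham surgery, against 10.4%. Of the 20 other endothelial genes, Rasip1 (1.82 ± 0.55) and Nos3 (1.80 ± 0.54), the endothelial nitric oxide synthase, were called higher in IRI over sham male tubules, against 10.6% of all genes. In isolates over tubules 15 of the 20 passed after injury and all 20 after sham surgery, against the same 3.90% and 10.4% of all genes.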

How the data were processed

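Messenger RNA of CD31-bead endothelial isolates and microdissected tubules was quantified in 24 libraries, and 2 libraries of 1 sham male tubule sample were added, which gave 23. The estimated counts per transcript are those the authors deposited from Salmon 0.13.1, per the submitters' processing notes, on GRCm38, and the TPM values come from the same deposited files. The authors' deposited tables of group comparisons hold log2 fold changes, p-values and a signal, the mean normalised count, made with DESeq2 per the submitters' processing notes; whether the fold changes were shrunk is not given in the sources used here.

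Here, the transcripts of a gene were added up and the sums rounded to whole numbers. Genes passing edgeR's filterByExpr (minimum count 10, minimum total 15) were tested with edgeR 4.0.16's quasi-likelihood test under TMM scaling in R 4.3.3, with Benjamini-Hochberg adjustment over all genes of a fit: 19910 genes in 11 endothelial libraries, 18369 in 12 tubule libraries and 21206 in all 23. A call is an adjusted p under 0.05, and errors beside log2 changes are SE. DESeq2 1.42.0, other scalings, covariates and leaving out each library were alternatives. The test was run on simulated data. Gene positions are from GENCODE M21. Values in every library, or their range, are given for Pecam1 and Cdh5, for up to 8 called members of a comparison or else the 3 with the smallest p, and for the top member of each role by TPM; other members were named as needed. The members and lists were chosen with earlier results of these data known.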

Additional observations from a re-analysis of the deposited data

How the results depend on the processing

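DESeq2 called 1 in IRI over sham male isolates and 1 in IRI over sham female tubules; no low-count filter gave 1 in IRI male over IRI female isolates and 1 in female tubules, where fitting only the groups compared also gave 1. In IRI over sham male tubules (3) the count was 7 without the filter, 9 by DESeq2, 0 with only the groups compared, and 1 relative to the sum or the median ratio of the 20 endothelial genes. In IRI male over IRI female tubules (3) it was 5, 8 and 0 under the first of these settings, 0 relative to the sum, 1 with length offsets and 7 with the 20 genes as a covariate. In sham male over sham female tubules (1) it was 0 with length offsets, the median ratio, the covariate or the replicate block. The sex difference of the tubule injury change gave 1 without the filter and 1 by DESeq2. The covariate gave 4 in IRI over sham male tubules. The share of all genes called in that comparison moved as well. It was 19.0% as fitted, 12.2% with the covariate, 3.57% relative to the sum and 42.5% without IRI male replicate 3. Shares under the other settings are not given here, so a change in these counts is not by itself a change in the members. Proximal tubule markers as a covariate moved the isolate medians: to -1.48 in IRI over sham males, with 1 of 42 members positive (0.31 and 27 without it), to -1.45 in IRI male over IRI female, with 0 positive (-0.10 and 19), and to -1.20 for the sex difference of the injury change, with 1 positive (0.46 and 32). Gpihbp1 in IRI over sham males turned to -0.89 under it, and 0 members were called. The proximal tubule markers include Kap, and its part in these moves was not tested. Their summed level did not overlap between male isolates, at 12042, 13924 and 10644 CPM after injury and 31156, 31860 and 17658 CPM after sham surgery. As far as the covariate follows injury in this way, it cannot be told apart from injury. The moved medians are therefore not to be read as a correction for tubule content.

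Leaving out 1 library at a time gave 0 to 3 called members in male isolates, 0 to 1 between sham isolates, 0 to 10 in male tubules, 0 to 1 between sham tubules, 0 to 10 between IRI tubules, 0 to 4 for the sex difference in tubules, 33 to 36 in sham isolates over tubules and 20 to 32 in IRI isolates over tubules, where the 20 came without IRI male tubule replicate 2; the other counts were 0 to 0. The counts of 10, 10 and 4 in tubules came without IRI male replicate 3, with 42.5%, 44.1% and 30.5% of all genes called. The 3 in male isolates came with 3.60% of all genes called. Plvap was the 1 member called between sham isolates, without sham male replicate 3, and Gata2 was called for the sex difference without sham male tubule replicate 3. In IRI over sham female isolates this range was -1.02 to 0.31 for Sox17, -1.08 to 0.07 for Ptprb and -0.83 to 0.17 for Nrp1. The cause of these changes was not tested.

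The labels do not say what a shared number means, so the main tests did not take the numbers as pairs. Libraries with the same replicate number had correlations of -0.458 to 0.449 among isolates and -0.14 to 0.286 among tubules. Isolates and tubules with the same title number had correlations of -0.727 to 0.813, with a median of 0.103. These values use deviations from the means of small groups, which ties the deviations within a group together. They therefore cannot decide whether libraries share a mouse. With the replicate number as a block, the calls were 0 in every isolate comparison, 3 in male and 0 in female tubules, and 3 between IRI tubules. For isolates over tubules the block was the title number instead, and the calls were 36 in sham and 32 in IRI mice. Lyve1, Gata5, Aplnr and Apln rest on few reads. The scaling by the median ratio and the spread estimated without a library outside the groups compared were chosen after seeing the data.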
